A study of Mus musculus with 2 samples.

Results

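Internal alternative promoters of protein-coding genes were examined here as regions of open chromatin in the neonatal mouse adrenal gland. The members were selected on the deposited peak calls. A member is a peak of replicate 2 that overlaps a replicate 1 peak by at least 1 bp, has its centre within 500 bp of an annotated transcription start site (TSS) of a protein-coding gene on chromosomes 1 to 19, and lies over 5 kb from the 5′ end, the outermost annotated start, of every protein-coding gene. There were 1712 members among 38180 shared peaks, and they belonged to 1185 genes.

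The chromatin was mapped by DNase-seq, in which the nuclease DNase I cuts where DNA is not covered by nucleosomes and a local excess of cuts is called as a peak. Both libraries came from adrenal gland tissue of female B6CASTF1/J mice aged 4 days, with no treatment named. B6CASTF1/J animals are hybrids of 2 inbred parents, and the 2 alleles were not separated. The labels call the libraries biological replicates 1 and 2 of 1 group and mention 3 females per sample, while both samples carry 1 donor identifier. There was no second group, so no test between groups was possible, and each value is given for both libraries.

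A gene with alternative promoters starts transcription at more than 1 place, so that its transcripts differ in their first exon. The choice can change the start of the protein, or only the leader sequence and the signals that control when the gene is read. In gene annotation the outermost start is often taken as the promoter, although the start that a tissue uses can lie far inside the gene. Many mammalian promoters lie in CpG islands, stretches in which the CpG dinucleotide has not been depleted.

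Stretches of 6 internal promoters are printed because they carry the main patterns described below. Por and Atf3 had an internal peak and no peak at the 5′ end. Ndel1, Fkbp5, Tpm1 and Nr4a1 had peaks at both places, with the internal one the higher. Each sequence is the part of the replicate 2 peak that overlaps no annotated exon, at most 300 bases, taken from the reference GRCm38.p6 (mm10) and written 5′ to 3′ on the strand of the gene. Capitals mark bases inside deposited footprints of both libraries, that is, short protected stretches within open chromatin.
Por: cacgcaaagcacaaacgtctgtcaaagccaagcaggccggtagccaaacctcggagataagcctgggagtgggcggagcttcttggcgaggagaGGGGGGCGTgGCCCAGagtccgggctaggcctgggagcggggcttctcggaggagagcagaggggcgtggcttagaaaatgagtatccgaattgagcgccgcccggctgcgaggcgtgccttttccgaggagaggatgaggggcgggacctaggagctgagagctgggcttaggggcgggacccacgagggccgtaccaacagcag
Ndel1: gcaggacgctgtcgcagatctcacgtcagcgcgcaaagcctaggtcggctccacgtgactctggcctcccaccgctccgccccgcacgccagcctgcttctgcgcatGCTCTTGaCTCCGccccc
Nr4a1: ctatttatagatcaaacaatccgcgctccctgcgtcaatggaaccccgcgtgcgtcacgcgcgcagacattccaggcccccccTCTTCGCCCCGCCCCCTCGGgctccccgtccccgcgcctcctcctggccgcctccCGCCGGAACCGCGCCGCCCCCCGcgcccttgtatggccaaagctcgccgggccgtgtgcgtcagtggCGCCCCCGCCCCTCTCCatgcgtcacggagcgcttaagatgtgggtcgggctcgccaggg
Atf3: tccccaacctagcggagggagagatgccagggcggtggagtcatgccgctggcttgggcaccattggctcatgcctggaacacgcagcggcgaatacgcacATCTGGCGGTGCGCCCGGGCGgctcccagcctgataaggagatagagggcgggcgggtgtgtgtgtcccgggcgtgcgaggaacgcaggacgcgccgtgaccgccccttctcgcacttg
Tpm1: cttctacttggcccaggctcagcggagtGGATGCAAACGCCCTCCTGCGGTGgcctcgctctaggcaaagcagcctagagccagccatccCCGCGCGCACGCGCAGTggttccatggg
Fkbp5: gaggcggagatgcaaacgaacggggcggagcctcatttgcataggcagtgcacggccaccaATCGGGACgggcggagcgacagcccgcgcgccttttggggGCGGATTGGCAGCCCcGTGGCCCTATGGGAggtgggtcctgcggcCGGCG
The Por stretch is chr5:135688736-135689035 on the plus strand and ends 1 base before the annotated start. Ndel1 is chr11:68853136-68853260, minus strand, Nr4a1 is chr15:101266581-101266845, plus strand, Atf3 is chr1:191183441-191183660, minus strand, Tpm1 is chr9:67043963-67044080, minus strand, and Fkbp5 is chr17:28486150-28486300, minus strand. In Nr4a1 the letters CCGCCC, the reverse complement of the SP/KLF string GGGCGG, begin at bases 92, 152 and 211, and each of these 3 matches lies wholly inside a footprint of both libraries. The Por stretch holds GGGCGG or its complement 4 times, from bases 71, 193, 235 and 268, with 0 of these bases in a shared footprint. Ndel1 holds the E-box letters CACGTG from base 52, outside the shared footprints, and Tpm1 holds none of the 15 strings searched. A match of letters is a description and not evidence of a bound factor.

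The members were close to all shared peaks in median width and height. Their median width in replicate 2 was 200 bp (interquartile range 180 to 260), against 200 bp for all shared peaks. The members' median deposited signal was 1.15 in replicate 1, with a range of 0.256 to 5.72. In replicate 2 the median was 2.21 and the range 0.369 to 16.5. All shared peaks had medians of 1.08 in replicate 1 and 2.26 in replicate 2. The signal is the authors' own value for each peak, and no label or header states how it was scaled. In whole tissue, fewer cells of a type and less open chromatin per cell cannot be told apart. Across the 1712 members, Spearman's coefficient between the 2 libraries was 0.895, given as a description, since members can share a replicate 1 peak (1611 distinct ones) and all share the same 2 libraries. Both stricter peak lists contained 1158 members (67.6%). Members are not independent of each other: 60 overlapped another member, and joining those within 500 bp left 1365 separate stretches, 1088 of them with 1 member.

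The distance from a start site was limited by the rule and is given as a description. The median distance from the nearest internal TSS was 86 bp, and 59.2% of members were centred upstream of it. For peaks at the 5′ ends of protein-coding genes, held to the same 500 bp, these values were 54 bp and 65.5%. The members lay 5003 to 2857009 bp from the 5′ end of their gene, with a median of 26671 bp (interquartile range 11333 to 73711) and a median position 47.3% of the way into the gene. A start of a non-coding gene lay within 500 bp of 108 members (6.31%), for which the TSS that the peak belongs to cannot be told apart. On chromosome 18 there were 67 members.

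At the limits of the rule, the peaks just inside and just outside spanned similar heights. The members nearest the 500 bp limit were in Zmynd8 and Hif3a at 498 bp and Ptch1 at 496 bp, with replicate 2 signals of 1.08, 2.50 and 2.41. Just outside were peaks in Senp7 at 501 bp, Macf1 at 502 bp and Fggy at 503 bp, with 2.10, 1.24 and 0.959. At the 5 kb limit the nearest members were in Abhd4 (5003 bp), Sox6 (5013 bp) and Homer1 (5026 bp), and the nearest peaks left out were at Ift46 (4993 bp), Pef1 (4983 bp) and Fgf9 (4981 bp). The number of members depended on the library: with all replicate 2 peaks, whether or not replicate 1 had them, it was 2994, and with all replicate 1 peaks it was 1947.

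Few of the annotated internal starts were open, and the open share differed by class of transcript. Of 21630 internal start sites over 5 kb from every 5′ end, 1403 (6.49%) had a shared peak within 500 bp. Among 2148 sites with a transcript that APPRIS marks as principal, the main protein form of its gene, 594 were open (27.7%, 95% Wilson interval 25.8 to 29.6). For other coding transcripts with a complete start 396 of 2719 were open (14.6%, 13.3 to 15.9). For coding transcripts with an incomplete start, or marked for decay, 76 of 3942 were open (1.93%, 1.54 to 2.41). For sites with only non-coding transcripts of the gene, such as retained introns, 337 of 12821 were open (2.63%, 2.37 to 2.92). The intervals cover sampling of sites only, and sites of 1 gene are not independent.

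**Figure D1:**
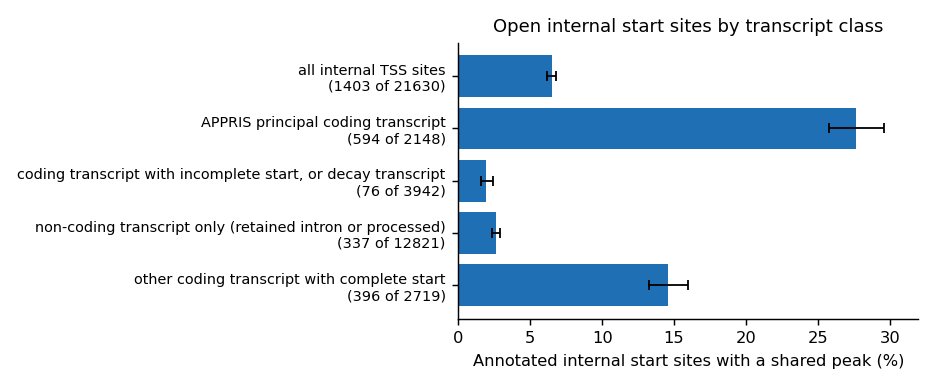
Share of annotated internal start sites with a shared peak (horizontal axis, percent) for all sites and for each of 4 transcript classes (rows, with numbers of sites); bars start at 0 and lines are 95% Wilson intervals. Principal transcripts stand at 27.7% and non-coding transcripts of the same kind of gene at 2.63%.

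Among the members themselves, 757 (44.2%) had the start of a principal transcript of the gene within 500 bp of their centre. Failing that, 502 (29.3%) had another complete coding transcript there, 78 (4.56%) an incomplete or decay transcript and 375 (21.9%) non-coding transcripts only. The percentages are of all members. The label "promoter" was checked against sequence content and position. CpG-rich windows, with an observed to expected CpG ratio over 0.6 and a GC content over 50% in 500 bp, made up 76.9% of members at principal starts, 54.2% at other complete coding starts, 33.3% at incomplete or decay transcripts and 20.3% at non-coding transcripts. Gene-body peaks here are shared peaks in coding genes, over 1 kb from any TSS and over 5 kb from every protein-coding 5′ end. They were CpG-rich in 4.00% of 6375 cases, and 5′-end peaks in 84.4% of 13006. Members at non-coding transcripts thus lay between gene-body peaks and the other members in CpG content, and the name promoter rests on the annotation alone there.

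The annotated coding start lay downstream of the gene's most upstream one at nearly as many members as it did not. Of the 1259 members at a complete coding transcript, 612 (48.6%) had transcripts whose coding sequence begins downstream of the most upstream coding start of the gene. At the other 647 (51.4%) a transcript of the member itself began its coding sequence at that most upstream coding start. Whether a transcript from another start of the gene uses the same start codon was not checked.

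The 1185 member genes split by what was found at their 5′ end. A shared peak centred within 500 bp of the 5′ end was present in 628 (53.0%, 50.1 to 55.8), against 54.0% of all 20807 protein-coding genes. Replicate 2 alone had a peak there in 77 genes, replicate 1 alone in 15, and both had peaks that did not overlap in 9. In 456 genes (38.5%, 35.8 to 41.3) neither library had a peak. Member genes were 13.2% of the 8955 genes with an annotated internal start that the rule could take. Among the 7770 such genes without a member, 70.1% had a shared 5′-end peak and 24.8% had none. For the 456 genes, 430 (94.3%) also had no position with a false discovery rate under 0.05 within 500 bp of the 5′ end in either library, so that no weaker signal was listed there at this depth. In 413 of the 456 (90.6%) no annotated start of the gene that lies within 5 kb of a protein-coding 5′ end was open. Some of the 456 genes, such as Pde4d, held members at several internal starts.

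Genes with and without a 5′-end peak had opposite sequence profiles. In the 456 genes without one, the 5′ end was CpG-rich in 30 (6.58%) and the strongest internal member in 300 (65.8%). The median CpG ratio was 0.243 at the 5′ end and 0.737 at the internal peak. In the 628 genes with a shared peak at the 5′ end the order turned: the 5′ end was CpG-rich in 505 (80.4%) and the internal peak in 268 (42.7%), with median ratios of 0.781 and 0.535. An internal peak that was CpG-rich while the 5′ end was not occurred in 284 genes of the first group and 69 of the second.

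**Figure D2:**
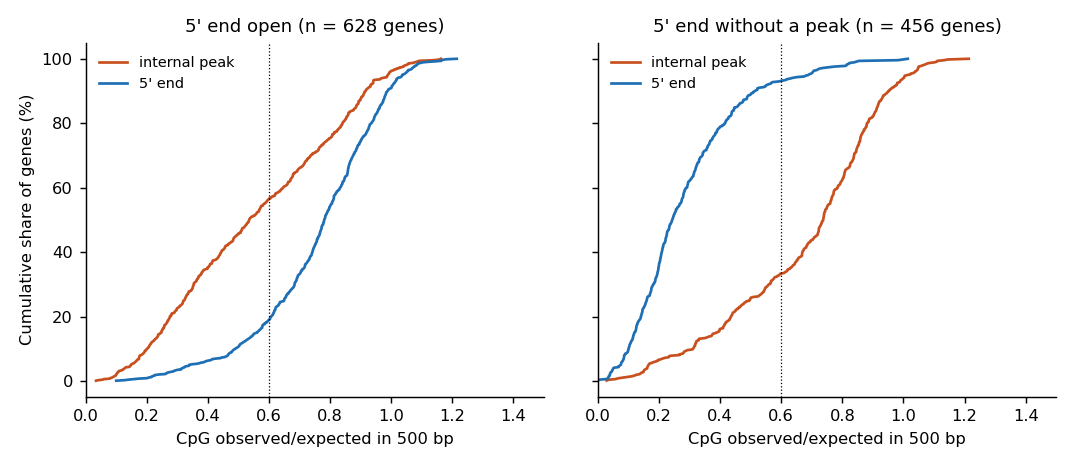
Cumulative share of genes (vertical axis, percent) against the observed to expected CpG ratio in 500 bp (horizontal axis) at the strongest internal peak (orange) and at the 5′ end (blue), for 628 genes with a shared 5′-end peak (left) and 456 genes with no peak there (right). The dotted line marks 0.6; the curve of the internal peaks lies to the left of the 5′ ends in the first panel and to the right in the second.

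The annotation followed the same split. In the group without a 5′-end peak a principal transcript began at the internal member in 292 genes (64.0%) and at the 5′ end in 160 (35.1%). A principal transcript had an open start somewhere in 313 of these 456 genes (68.6%). In the group with a peak at both places a principal transcript began at the 5′ end in 406 genes (64.6%) and at the strongest internal member in 242 (38.5%). A transcript of support level 1, the best supported class, began at the 5′ end in 200 genes (43.9%) of the first group and 440 (70.1%) of the second. The internal members of the first group had median signals of 1.57 and 3.21 in replicates 1 and 2, and those of the second 1.26 and 2.65. They lay a median of 17362 bp and 28881 bp into the gene.

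The tallest internal peaks without a 5′-end peak belonged to genes of varied cell functions. The 12 genes with the highest mean signal in this group had internal signals of 3.82 to 5.72 in replicate 1 and 10.2 to 16.5 in replicate 2. Of the 12 genes, 11 had a CpG-rich member and 11 a member at a principal start, with the peak shared by Desi1 and Xrcc6 counted for each. Tdrd7, which encodes a tudor domain protein of RNA granules, had 5.54 in replicate 1 and 16.5 in replicate 2 at chr4:45972181-45972380, 6947 bp into the gene. Stag1, a subunit of cohesin, had 5.72 and 12.2 at chr9:100643441-100643680, 45763 bp from its 5′ end.

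A single peak served Desi1 and Xrcc6, which point away from each other. The peak at chr15:82016161-82016360 had signals of 4.83 and 14.2. It lay at principal starts of both genes, 17601 bp inside Desi1, which encodes a protease for the protein tag SUMO, and 28426 bp inside Xrcc6, a subunit of the DNA end-binding complex Ku. Neither gene had a peak at its own annotated 5′ end. This was the only member that belonged to 2 genes.

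The other genes of this set followed the same form. Pnpla8, a phospholipase, had 4.54 and 13.3. Tollip, an adaptor in Toll-like receptor signalling, had 4.57 and 12.3. Dgkz, a diacylglycerol kinase, had 4.45 and 11.7, and its member begins the coding sequence further downstream. Glo1, which detoxifies methylglyoxal, had 5.09 and 10.9 and was the 1 gene of the 12 below the CpG limit, with a CpG ratio of 0.547. Fam107b had 3.82 and 11.7, Psen2, a catalytic subunit of gamma-secretase, had 4.28 and 11.2, and Csk, the kinase that restrains Src, had 4.57 and 10.2. Prx, which encodes periaxin of myelinating Schwann cells, had 4.13 and 10.4 at a coding start that is not principal, 405 bp from the peak centre. For Pnpla8, Psen2 and Prx a start of a non-coding gene also lay within 500 bp. The start that these peaks belong to therefore cannot be told apart.

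In the 628 genes with a shared peak at both places, the internal peak was usually the lower of the pair. The ratio of the strongest internal member to the strongest 5′-end peak had a median of 0.744 in replicate 1 (interquartile range 0.428 to 1.36) and 0.765 in replicate 2 (0.407 to 1.55), a mean of 0.755 ± 0.0146 (SD, n = 2). A ratio within a library does not depend on a factor by which all its values were multiplied. The scaling is not stated, and another kind of scaling could change the ratio. The internal peak was lower in both libraries in 353 genes (56.2%), higher in both in 193 (30.7%), and the libraries differed in 82 (13.1%). It was at least 3-fold higher in both in 23 genes and at least 3-fold lower in both in 81. With all replicate 2 peaks instead of shared ones, 359 of 1122 genes had the higher internal peak and the median ratio was 0.556. With all replicate 1 peaks these were 241 of 702 genes and 0.720, against 193 of 628 with shared peaks. The counts of 359 and 241 ask for a higher internal peak in 1 library only, while 193 asks for it in both.

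**Figure D3:**
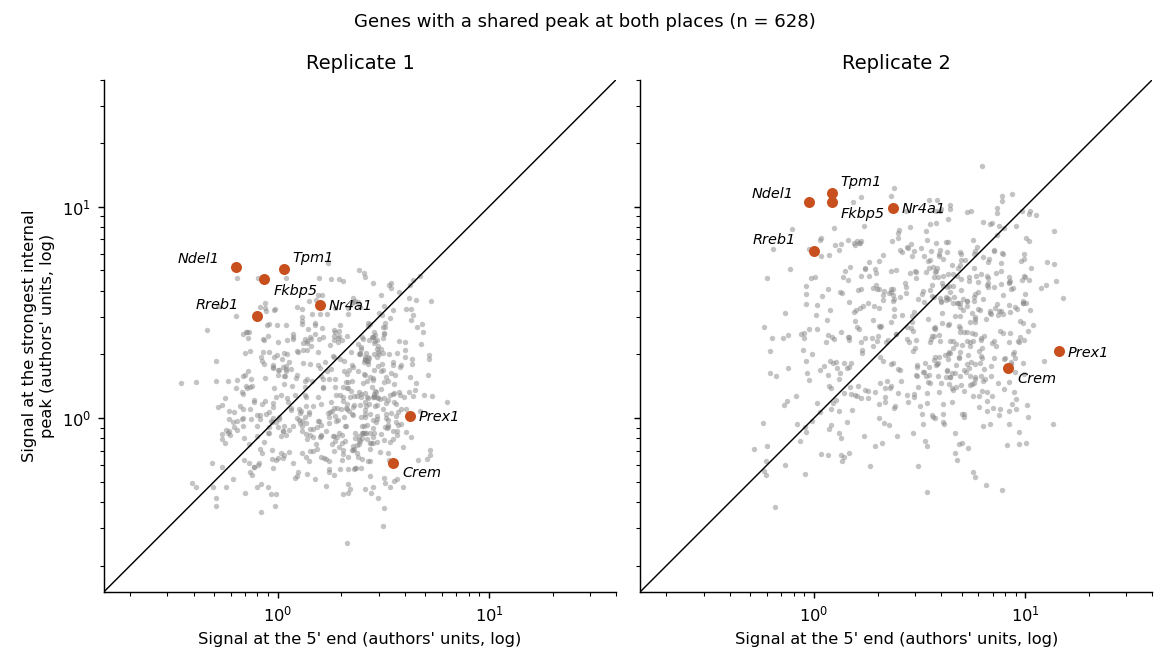
Signal of the strongest internal promoter peak (vertical axis) against that of the 5′-end peak (horizontal axis) for the 628 genes with both, in the authors' units on log scales, 1 panel per library; each point is a gene and the line marks equal signal. In both libraries Ndel1, Fkbp5, Tpm1, Rreb1 and Nr4a1 lie above the line and Crem and Prex1 below it.

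The 12 genes with the largest ratio, taken as the lower of both libraries, had internal peaks 3.84 to 8.23 times the 5′-end peak in replicate 1 and 4.34 to 11.1 times in replicate 2. They were chosen for this ratio, so the values are a description. Ndel1, a regulator of the motor dynein, led with internal signals of 5.19 in replicate 1 and 10.5 in replicate 2 against 0.631 and 0.950 at the 5′ end, ratios of 8.23 and 11.1. Fkbp5 encodes a co-chaperone of the glucocorticoid receptor and is itself a well-known glucocorticoid target. It had internal signals of 4.56 and 10.5 against 0.861 and 1.21, ratios of 5.30 and 8.69. A further shared peak of Fkbp5 outside the 500 bp window, 0.634 kb upstream of the 5′ end, was higher than the 5′-end peak, with 1.55 and 3.91, and still below the internal one.

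Tpm1 is a textbook case of alternative promoters: tropomyosin, an actin-binding protein, is made in long and short forms that start at different first exons. The internal peak, 5425 bp into the gene, had signals of 5.08 and 11.6, against 1.07 and 1.21 at the 5′ end. Its coding sequence begins downstream of that of the outer start. The internal peak was therefore 4.77 and 9.52 times the outer one.

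The remaining genes of the 12 covered several functions. Pnrc1, a nuclear receptor coactivator, had ratios of 7.17 and 6.69, and Vgll4, a cofactor of TEAD factors, was also in the set. Both were at non-coding transcripts. Hdac4, a histone deacetylase, had 5.69 and 6.89. Pwp1 had 5.69 and 9.82. Pcgf5, a Polycomb component, had internal signals of 4.59 and 12.3 against 1.09 and 2.38. Eef1a1, the translation elongation factor, had 3.37 and 6.63 against 0.827 and 1.34. Dlgap4, whose member also lay within 500 bp of a non-coding gene start, Cfap97 and Rreb1 completed the set. Of the 12 internal peaks, 11 were CpG-rich and 7 were at principal starts.

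**Figure D4:**
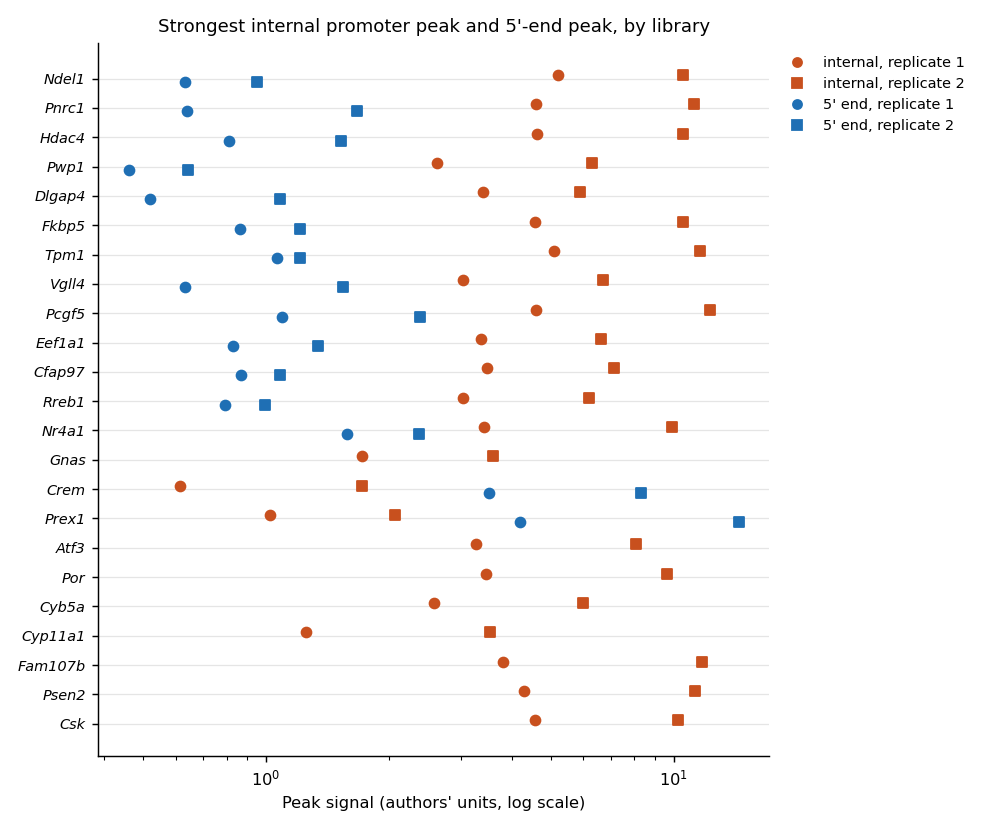
Peak signal (horizontal axis, authors' units, log scale) at the strongest internal member (orange) and, where a shared peak exists, at the 5′ end (blue) for 23 named genes (rows); circles are replicate 1 and squares replicate 2. From Ndel1 to Nr4a1 both internal values exceed both 5′-end values, while for Crem and Prex1 both 5′-end values are higher; the other genes have no blue points.

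Of the 12 genes with the highest members of all, 8 had no 5′-end peak and 4 had a shared one. Beside Tpm1 and Pcgf5 these were Bicdl1, a dynein adaptor, with internal signals of 5.03 and 15.6 against 2.41 and 6.21, and Ubr4, a ubiquitin ligase, with 5.41 and 10.8 against 1.73 and 3.80. The Ubr4 member also lay within 500 bp of a non-coding gene start. Opposite cases were Prex1, an activator of Rac, with internal signals of 1.02 and 2.07 against 4.20 and 14.4 at the 5′ end, and Crem. The internal peak of Crem lies near the start of a transcript whose coding sequence begins downstream. It had 0.614 and 1.72, against 3.52 and 8.30 at the 5′ end, ratios of 0.174 and 0.207. The inducible repressor ICER is known to arise from an internal Crem promoter. Which product the member serves was not tested.

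Most member genes had 1 member, and a few had many. There were 824 genes with 1, 252 with 2 and 109 with at least 3. These are counts of replicate 2 peaks, and neighbouring members can share 1 replicate 1 peak. Pde4d, a phosphodiesterase that degrades cAMP, had the most, 9. They lay in 4 places along the gene, at about 666 to 667 kb, 810.6 kb, 1236 kb and 1453 kb from the 5′ end. In replicate 1 all were below the member median of 1.15, with at most 1.02. In replicate 2 the highest had 2.45, above the member median of 2.21, and the others were below it. The 5′ end of Pde4d had no peak. Nr3c1, the glucocorticoid receptor, had 8 members packed between 27.7 and 32.3 kb from a 5′ end without a peak. The highest of these had 2.35 in replicate 1 and 6.84 in replicate 2, and the lowest 0.350 and 0.598. The highest was centred 410 bp upstream of the nearest start of the gene and was not CpG-rich, with a ratio of 0.587. Multiple first exons of the receptor gene in a CpG-rich stretch are well known from other tissues.

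Tenm4, a teneurin of cell adhesion, also had 8, and only replicate 2 had a peak at its 5′ end. Its highest member was at a non-coding transcript only, with a CpG ratio of 0.264. Rreb1, a zinc finger transcription factor, had 7, of which 5 lay between 47.6 and 49.4 kb, several with 1.09 in replicate 1. The higher ones were further in, at 79.5 kb with 3.04 and 6.18 and at 168.6 kb with 1.92 and 5.30, while the 5′ end had 0.793 and 0.994. Cic, a transcriptional repressor, had 6. The highest, 14307 bp into the gene, had 4.65 and 8.46, above the 2.58 and 6.30 at the 5′ end.

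Gnas is an imprinted gene whose nested promoters make the stimulatory G protein alpha subunit and several other products. Its 4 members were a pair at 43.1 and 43.4 kb and a pair at 45.5 and 45.7 kb from the outermost start, each near a principal transcript start. The first pair had 1.14 and 1.19 in replicate 1 and 1.47 and 2.12 in replicate 2. The second pair shared a replicate 1 peak of 1.71 and had 2.89 and 3.60 in replicate 2. Replicate 2 alone had a peak at the outermost start. Since the alleles were not separated, allelic use cannot be read from these values.

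**Figure D5:**
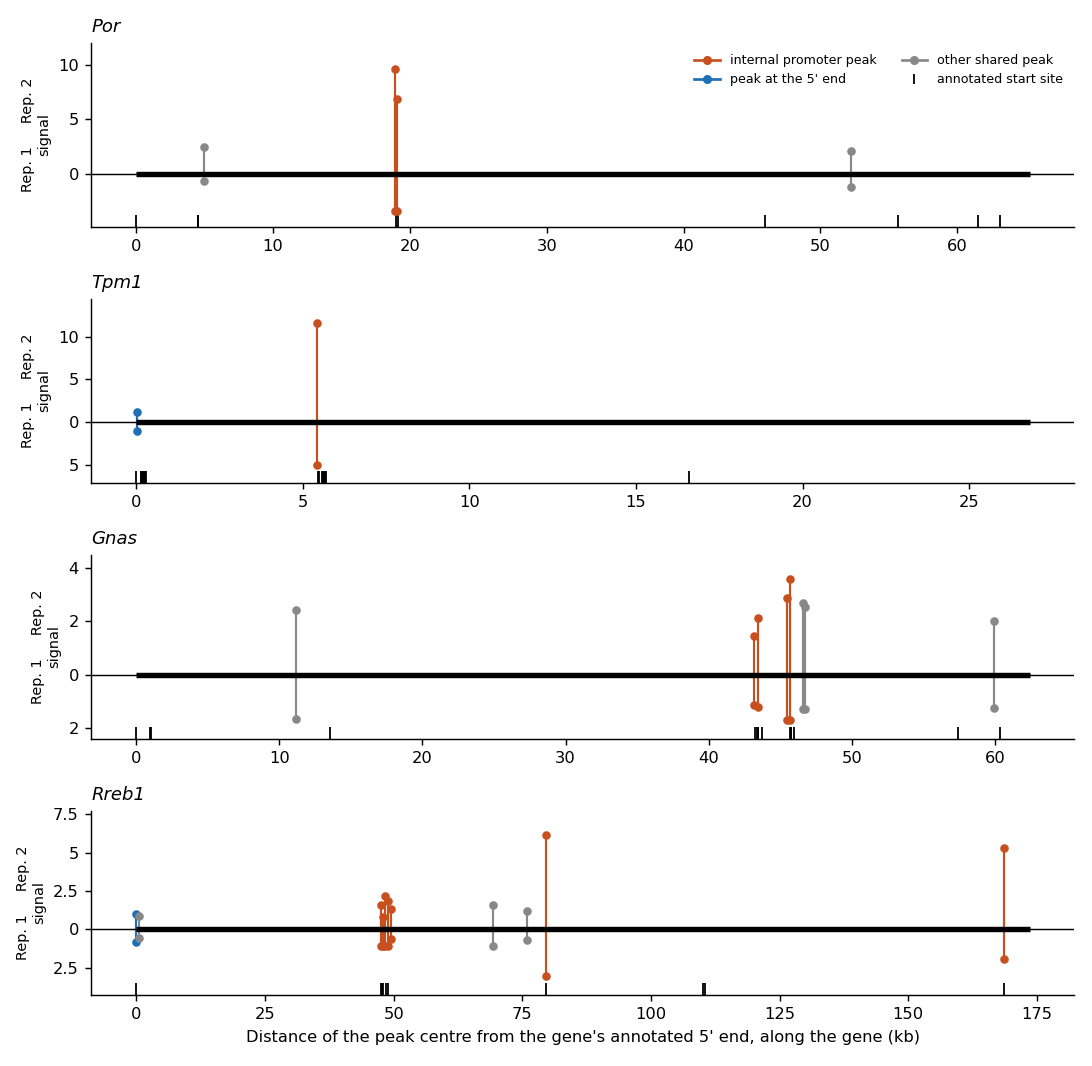
Shared peaks along Por, Tpm1, Gnas and Rreb1 by distance of the peak centre from the annotated 5′ end (horizontal axis, kb, in the direction of the gene); height above the line is replicate 2 signal and depth below it replicate 1 signal, in the authors' units, with the gene body as a thick bar and annotated starts as ticks. Por and Gnas have internal members and no shared peak at 0, while Tpm1 and Rreb1 have low 5′-end peaks and higher internal ones.

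The members furthest from a 5′ end were in genes with a very long annotated span. Fgfr2, a receptor for fibroblast growth factors, had one 2857009 bp from its outermost annotated start, at chr7:130266201-130266480, with 2.27 in replicate 1 and 3.40 in replicate 2. It lies at a principal start, at a fraction of 0.965 of the annotated span. The distant 5′ end had a shared peak of 1.32 and 1.70, and whether that peak serves Fgfr2 was not tested. Ptprd, a receptor phosphatase, had one at 1762020 bp with 1.20 and 1.80. Magi2, a membrane scaffold, had one at 1475095 bp with 1.60 and 2.86 against 1.24 and 2.92 at its 5′ end, so that the libraries differed in which was higher. The Magi2 member lay at a non-coding transcript only, and a non-coding gene start was within 500 bp of it.

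Gene lists for the adrenal gland and for known alternative promoters were then read against the 13.2% of eligible genes that held a member. Of 20 steroidogenesis and cholesterol supply genes, 12 had an eligible internal start and 3 held a member (25%). None of these 3 had a 5′-end peak in either library, and each member lies at a principal start. Por, the electron donor of microsomal cytochrome P450 enzymes, had 3.45 in replicate 1 and 9.61 in replicate 2. A lower shared peak of Por, with 0.674 and 2.50, lay 4.948 kb from the 5′ end. It was within 500 bp of annotated Por starts at 4.548 and 4.552 kb, so the member was not the first open start. Cyb5a, which encodes the cytochrome that aids the lyase reaction of steroid synthesis, had 2.58 and 5.99. Cyp11a1, which cleaves the side chain of cholesterol in the initial step of steroid synthesis, had 1.25 and 3.54 at chr9:58014921-58015120, 8610 bp from the outermost start. The Por member was CpG-rich, with a ratio of 0.765, while the Cyp11a1 member had a ratio of 0.163.

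Of the adrenal cortex factors and signalling genes, 18 were eligible and 7 held a member (38.9%). Beside Nr3c1 and Fgfr2, Rora, an orphan nuclear receptor, had 1.50 and 3.94 against 1.35 and 2.30 at the 5′ end. Ptch1, the receptor of Hedgehog proteins, had 6 members between 7.37 and 10.1 kb, the highest of them by mean with 1.50 and 2.41. Esrrg, another orphan nuclear receptor, had 1.07 and 2.18. Gata4 had 0.819 and 1.11 with no 5′-end peak. Dlk1, an imprinted Notch-like protein of the outer cortex, had 0.358 and 0.686, below its 5′ end at 0.836 and 1.47.

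Of the cAMP and immediate early response genes, 26 were eligible and 11 held a member (42.3%). Corticotropin acts on the cortex through cAMP, and Nr4a1 is an orphan nuclear receptor that this pathway induces. The Nr4a1 member had 3.43 in replicate 1 and 9.87 in replicate 2, against 1.58 and 2.37 at a 5′ end 12452 bp upstream, and lies at a principal start. Atf3, a stress-induced transcription factor, had 3.27 and 8.09, 34488 bp from a 5′ end without a peak. Nr4a2, a receptor of the same family, had the lower peak inside, with 1.11 and 2.45 against 2.00 and 3.60. The phosphodiesterase genes Pde4a, Pde4b, Pde4d, Pde7b, Pde8b and Pde10a all held members, with at most 1.49 in replicate 1 and 2.45 in replicate 2. Akap7, an anchor of protein kinase A, had 2.23 and 3.62 and no 5′-end peak.

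Of the textbook alternative promoter genes, 50 were eligible and 30 held a member (60.0%). In 14 of the 30 the 5′ end had a shared peak, in 10 it had none, and the internal peak was the higher in both libraries in 5. The highest by mean were Tpm1, Acaca, Sgk1, Nr3c1 and Lmna. Acaca, the carboxylase of fatty acid synthesis, had 3.31 and 6.43 against 2.15 and 2.75. Sgk1, a kinase induced by corticosteroids, had 3.05 and 6.47 at a start 112427 bp inside the annotated gene. Lmna, which encodes nuclear lamins, had 2.69 and 5.67 against 3.23 and 6.76. Low members were found in Bdnf (0.571 and 0.906), Esr1 (0.537 and 0.493) and Dclk1 (0.384 and 0.545).

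Structural genes with long modular proteins also held many members. Of the cytoskeleton and adhesion scaffolds 33 were eligible and 18 held a member (54.5%), in 6 of which the internal peak was higher in both libraries. Macf1, a spectraplakin that links actin and microtubules, had 2.04 and 3.37 with no 5′-end peak. Palld, an actin bundling protein, had 2.09 and 3.46, also with none. Limch1, an activator of non-muscle myosin, had 1.59 and 4.99 against 1.59 and 3.76, at a non-coding transcript only and below the CpG limit. Among NFI factors and tensins, 4 of 8 held a member, in the order Nfic (1.44 and 2.69), Nfib (1.23 and 2.38), Tns1 (1.30 and 1.76) and Tns3 (0.665 and 1.25). The Tns3 member was at a non-coding transcript only and not CpG-rich. These lists were chosen with results of these data known, so a share above 13.2% is a description of the lists and not support for them. The 13.2% is also per eligible gene and was not matched for the number of annotated internal starts.

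Lists of markers for cell types of the gland and its surroundings had few eligible genes, too few to read their shares against the 13.2%. Of 8 eligible chromaffin cell genes 1 held a member (12.5%), Cacna1d, with 0.708 and 0.783. Of 5 eligible skeletal muscle genes 1 did (20%), Ckm, with 0.955 and 1.24. The eligible genes of the endothelial (7), leukocyte (5), erythroid (3), capsule and fibroblast (5), Schwann (2), kidney (5) and adipocyte (4) lists held 0, and the liver list had 0 eligible genes. For the tissue label itself, 9 of 20 steroidogenesis genes (45%) and 10 of 20 chromaffin genes (50%) had a shared peak at the 5′ end, below the 54.0% of all protein-coding genes. The count was 4 of 8 for Schwann and neural crest genes, 2 of 12 for endothelial genes and 0 of 10 for leukocyte and for liver genes. It was 1 each for erythroid (of 8), capsule and fibroblast (of 9), kidney (of 10), adipocyte (of 8) and skeletal muscle genes (of 10).

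Beside the classes of transcript, the members were set against 5′-end peaks and gene-body peaks in their short sequence strings, searched on both strands in the 200 bp around the peak centre. GGGCGG, the SP/KLF string, occurred in 50.4% of members, 64.6% of 5′-end peaks, 11.2% of gene-body peaks and 38.2% of all shared peaks. The ETS string CCGGAAG occurred in 5.90% of members and 14.5% of 5′-end peaks, against 1.66% in gene bodies and 7.08% of all. NRF1 (CGCATGCG) stood at 1.69%, 3.24%, 0.298% and 1.52% in the same order. NF-Y (CCAATCA) stood at 4.50%, 7.87%, 2.13% and 4.52%, and CREB (TGACGTCA) at 1.46%, 3.01%, 0.392% and 1.49%.

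Of the strings that were most frequent in gene-body peaks, some stood at middle levels in members and others below both sets. AP-1 (TGANTCA) occurred in 5.26% of members, 2.05% of 5′-end peaks, 10.2% of gene-body peaks and 5.80% of all. The letters AGATAA, known from sites of GATA factors, stood at 2.57%, 1.63%, 6.35% and 3.85%, and CTCF (CAGNGGGC) at 13.4%, 11.8%, 19.5% and 14.7%. The string NR5A1/ESRR (CAAGGTCA), named for the factor that directs steroidogenic cells, occurred in 12 members (0.701%), 0.538% of 5′-end peaks, 2.78% of gene-body peaks and 1.43% of all. The core promoter letters TATAAA stood at 1.58%, 2.11%, 5.22% and 3.34%. The NR4A string AAAGGTCA, in 0.350% of members, shares its last 7 letters with the NR5A1/ESRR string. The E-box occurred in 6.25% of members, YY1 (AAGATGG) in 3.56%, RFX (GTTGCCAT) in 1.11% and ZNF143 (ACTACAA) in 1.40%, against 5.73%, 4.17%, 0.891% and 1.80% of all shared peaks.

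Splitting by CpG content brought members and 5′ ends together for one string and not for another. Among CpG-rich regions GGGCGG was in 68.6% of 956 members and 68.8% of 10981 5′-end peaks. CCGGAAG was in 8.58% (95% Wilson interval 6.96 to 10.5) of these members and 15.8% (15.1 to 16.5) of these 5′-end peaks. Among regions that were not CpG-rich, GGGCGG was in 27.2% of 756 members and 41.7% of 2025 5′-end peaks, and AP-1 in 8.60% and 4.10%. CpG-rich members had median signals of 1.46 and 2.56 in replicates 1 and 2 and CpG-rich 5′-end peaks 2.02 and 3.91. Among regions that were not CpG-rich the medians lay closer, 0.938 and 1.84 for members and 1.05 and 1.98 for 5′-end peaks. By transcript class, GGGCGG was in 62.9% of members at principal starts and 26.9% at non-coding transcripts.

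Footprints were present in most members. At least 1 deposited footprint of each library overlapped 1318 members (77.0%, 74.9 to 78.9), against 81.1% of 5′-end peaks and 83.2% of gene-body peaks. Per kb of peak there were 9.56 footprints in replicate 1 and 10.6 in replicate 2 for members, 11.6 and 12.2 for 5′-end peaks, and 9.33 and 11.5 for gene-body peaks. The share of members with a footprint ranged from 75.9% at other complete coding starts to 78.7% at non-coding transcripts, a spread within the intervals of the 4 classes.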

How the data were processed

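DNase-seq of adrenal gland was used in 2 libraries of 1 group. Per the labels, peaks, footprints and cut-rate lists are on assembly mm10; no source used here names the tools or read depth, so counting error per peak could not be computed. Each deposited peak carries 1 signal value, whole multiples of a step of 0.00853 in replicate 1 and 0.00880 in replicate 2, with the authors' scaling not given. The deposited cut-rate lists hold p-values adjusted as false discovery rates, only those under 0.05, and the deposited footprints carry the value 0.01 in each entry, which was assumed here to be a p-value limit. On chromosomes 1 to 19 the longer of 2 peak lists per library held 44573 peaks in replicate 1 and 84379 in replicate 2.

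Genes, transcripts and starts came from GENCODE M21 and sequence from GRCm38.p6, a C57BL/6J genome; coordinates are 1-based. A member's signal in replicate 1 is that of the strongest overlapping peak. Per gene, the member and the 5′-end peak (centre within 500 bp) with the highest mean of both libraries were compared as a ratio in each library. Internal starts of a gene within 500 bp of the next were joined into 1 site. Named genes were the 12 highest by mean signal, the 12 largest ratios, the 12 highest without a 5′-end peak, the 5 with most members, the 3 furthest from a 5′ end and members of the lists, up to 5 per list with values. Crem, Gnas, Prex1, Gata4, Dlk1, Bdnf, Esr1 and Dclk1 were added after their values were seen. The result for 1 further gene list is not reported here. The rule was tested on planted peaks. The members and lists were chosen with earlier results of these data known. Alternatives changed the peak lists, overlap, windows, transcripts, 5′ end, CpG definition and library. With 2 libraries of 1 group, no test was made. Intervals are 95% Wilson intervals. Software was Python 3.11.15, numpy 2.4.6, pandas 2.3.3, scipy 1.17.1, pysam 0.24.0, samtools 1.23.1 and matplotlib 3.10.9.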

Additional observations from a re-analysis of the deposited data

How the results depend on the processing

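No paired analysis was possible because the design has 1 group. Read depth and signal scaling are not given, and peaks under the authors' thresholds were not seen, so a start without a peak is not shown to be closed. For every value that moved with a setting, the cause was not tested beyond the setting's own construction.

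With the stricter peak lists, 43.96% of member genes had a shared 5′-end peak, the median ratio was 0.816, 122 of 386 genes had the higher internal peak, 65.3% of members were CpG-rich and 85.4% had a footprint in both. With 50% reciprocal overlap the shares with a 5′-end peak and a footprint were 45.6% and 85.9% and the ratio 0.782. A TSS window of 250 bp gave 5.43% open sites, a ratio of 0.786, 59.4% CpG-rich and 79.7% with footprints; 1 kb gave 8.10%, 0.722 and 50.4% CpG-rich. Over 2 kb from every 5′ end, 7.02% of sites were open and the ratio was 0.781. Complete coding transcripts gave 20.3% open sites, a 5′-end share of 47.7%, a ratio of 0.861 and 67.8% CpG-rich; support level 1 gave 1089 members, 16.1%, 47.3%, 0.849 and 67.5%. A 5′-end window of 1 kb gave a 5′-end share of 56.7%. The first principal start as the 5′ end gave 459 of 745 genes (61.6%) and a ratio of 0.699. That setting kept only genes whose first principal start lay over 5 kb from the TSS of the strongest member. Its genes are thus a part of the 1185, and its share is not of the same set. The stricter CpG definition gave 36.9% CpG-rich and at least 3 footprints 24.6%.

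Leaving out 1 library gave 1947 to 2994 members, 241 (of 702) to 359 (of 1122) genes with the higher internal peak, ratios of 0.556 to 0.720, 5′-end shares of 55.2% to 63.8%, CpG-rich shares of 38.9% to 53.9% and footprint shares of 74.6% to 81.8%; the lower numbers of members and genes came without replicate 2. With 1 library left out, a higher internal peak and a footprint were required in the remaining library only, not in both. In each setting the median ratio stayed below 1.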
